A study of Mus musculus with 41 samples.

Results

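The genes described here are 10 members of the cytokine feedback system of myeloid cells: Socs1, Socs2, Socs3, Socs4, Socs5, Socs6 and Cish of the SOCS family, and the transcription factor genes Stat3, Stat5a and Stat6. They were taken by gene symbol from the authors' 3 deposited tables of differential expression, which list 55453 genes each. All 10 were found, and all 10 carry an adjusted p-value in every table, so no member was lost to a filter on low counts. The tables compare cells from irradiated and untreated rectal tumours. The tumour cells were MC38-luc, a colon adenocarcinoma line of C57BL6 mice that carries luciferase, implanted at the orthotopic site in female C57BL6 mice. The irradiated tumours received 5 fractions of 5 Gy, one a day from day 9 to day 13, the untreated tumours (UT in the labels) received none, and day 14 was the day of harvest for both.

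CD45+ CD11b+ cells were sorted into 3 subsets. Tumour-associated macrophages (TAM) were Ly6C- Ly6G- F480+, with 10 irradiated and 5 untreated libraries. Inflammatory monocytes were Ly6C+ Ly6G-, with 9 irradiated and 5 untreated libraries. Granulocytes were Ly6C+ Ly6G+, with 7 irradiated and 5 untreated libraries. Tumours are numbered from 1 to 15 and 11 of these numbers have a library in all 3 subsets, so the comparisons share tumours although they share no library. No number occurs in both treatment arms.

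Cytokine receptors of this pathway carry JAK kinases, which phosphorylate STAT factors once a ligand binds, and the STAT factors then move to the nucleus and switch on target genes. Some of the SOCS proteins and CIS, the product of Cish, are among those targets. They bind the receptors or the kinases and dampen the same signal, so their mRNA is widely read as a trace of recent cytokine signalling. In myeloid cells, STAT3 acts downstream of interleukin 6, interleukin 10 and granulocyte colony-stimulating factor (G-CSF), STAT5 downstream of granulocyte-macrophage colony-stimulating factor (GM-CSF) and interleukin 3, and STAT6 downstream of interleukins 4 and 13.

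Each value below is the authors' deposited result of a Wald test in DESeq2, irradiated over untreated. No table holds a value for one library, so depth is unknown and levels in single tumours cannot be shown. The log2 fold changes were read as shrunken towards 0, the Wald statistic is the effect over its standard error, and a gene is called at an adjusted p under 0.05 over all genes of its table. A standard error was approximated as fold change divided by Wald statistic. It lay between 0.13 and 0.31 on the log2 scale for the members, and the 95% intervals given below rest on it. If the fold changes are shrunken, these intervals are drawn towards 0 with them and are too narrow for the change before shrinkage. Nothing in the labels says more about separate animals than the tumour numbers, and all p-values measure the spread between libraries. Mean counts are identical in every table, so the subsets may have been fitted jointly. The p-values of a table could then rest partly on the spread in the other subsets. Libraries of the same tumour from different subsets would also have counted as independent. Whether the fit was joint was not tested. In bulk RNA of a sorted gate, a shift in the kinds of cells in the gate and a shift in RNA per cell cannot be told apart.

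Promoter sequences are shown for Socs3, Cish and Socs1, the 3 members with the largest increases in macrophages. They are shown because some of the SOCS genes are themselves targets of cytokine-activated factors. RefSeq's table of transcript starts (build GRCm38.p6) gave windows of 250 bases before and 50 bases after a start for 7 of the 10 members, 8 windows in all. The authors' build, GRCm39, is another one, so these positions are RefSeq's alone. The STAT motif was TTCNNNGAA, which reads the same on both strands and occurs in 8.30% of all 32851 windows. The motif of interferon regulatory factors (IRF) was GAAA, any 2 bases and GAAA again, on either strand, which 3.44% of the windows hold. Capitals mark the matches.

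Socs3, minus strand, the 250 bases before the start, chr11:117969367-117969616: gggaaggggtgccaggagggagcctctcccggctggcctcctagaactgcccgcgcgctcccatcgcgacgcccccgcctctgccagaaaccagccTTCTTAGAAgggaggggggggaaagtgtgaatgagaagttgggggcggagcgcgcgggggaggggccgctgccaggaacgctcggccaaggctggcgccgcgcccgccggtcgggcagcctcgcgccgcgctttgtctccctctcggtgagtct
Cish, plus strand, 30 bases at the start, chr9:107296654-107296683: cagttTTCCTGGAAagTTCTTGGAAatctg
Socs1, minus strand, the 250 bases before the start, chr16:10785537-10785786: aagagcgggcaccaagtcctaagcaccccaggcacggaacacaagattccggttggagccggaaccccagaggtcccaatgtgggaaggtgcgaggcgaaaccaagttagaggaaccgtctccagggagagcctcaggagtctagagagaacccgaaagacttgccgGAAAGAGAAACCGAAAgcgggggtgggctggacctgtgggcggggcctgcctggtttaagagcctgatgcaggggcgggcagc

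Socs3 held 1 STAT motif, TTCTTAGAA, 154 bases before the RefSeq start. Cish held a tandem pair, TTCCTGGAA at base 1 and TTCTTGGAA at base 12 after the start. Socs1 held no STAT motif and 2 IRF motifs that share 4 bases, the first covering bases -83 to -74 from the start. Neither motif was found in the windows of Socs4, Stat3, Stat5a and Stat6. The starts are one annotation's choice: in GENCODE M21, the first listed Socs3 transcript begins 180 bases further downstream, and that of Cish 633 bases further upstream. A match is a run of letters, and binding was not measured.

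**Figure D1:**
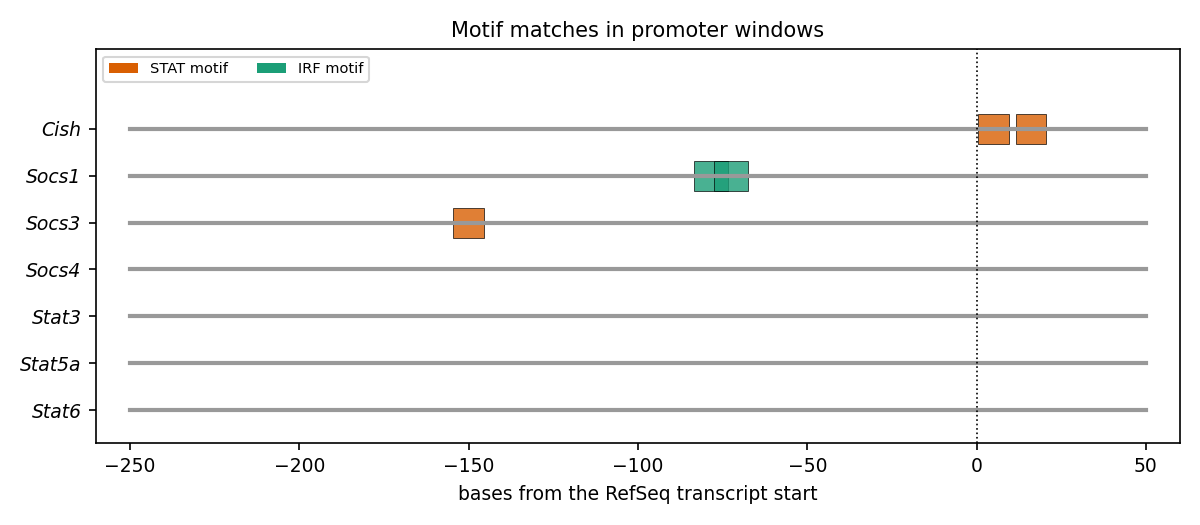
Matches of the STAT motif (orange) and the IRF motif (green) along the promoter windows of 7 members, in bases from the RefSeq transcript start (dotted line), with the first of 2 windows drawn for Stat5a. The tandem STAT matches of Cish lie at the start, the Socs3 match lies 154 bases before it, and the overlapping IRF matches of Socs1 begin at base -83.

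In macrophages of irradiated tumours, 6 of the 10 genes rose and 1 fell. Socs3, Cish, Socs1 and Socs2 rose among the inhibitors, Stat3 and Stat6 rose among the factors, and Socs5 fell. Among all genes tested in this table, 13.9% were called higher and 12.5% lower. The median Wald statistic was 3.30 over the members and 0.14 over all genes tested.

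Cish, whose product restrains STAT5 signalling, had the highest fold change of the 10 in macrophages. The authors' deposited table gives it a log2 fold change of 1.39, or 2.62-fold higher in irradiated than in untreated tumours (Wald statistic 4.92, adjusted p = 1.8e-05, DESeq2). Its approximate 95% interval ran from 0.83 to 1.94, and it took rank 826 of 16851 tested genes by p. Socs1, which blocks the JAK kinases and is best known as a brake on interferon signalling, had 1.13 in the authors' deposited table (Wald statistic 4.04, adjusted p = 5.6e-04). Socs3, which binds the interleukin 6 and G-CSF receptors and limits STAT3 activation, had 1.09, or 2.13-fold (Wald statistic 4.83, adjusted p = 2.6e-05), with an approximate interval from 0.65 to 1.54. The approximate interval of Socs1 ran from 0.58 to 1.67, so all 3 lay above 0.

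Socs2, a regulator of growth hormone signalling, rose by less in the authors' deposited table for macrophages, with a log2 fold change of 0.84 (adjusted p = 0.017). Stat3 had 0.50 in the same deposited table (Wald statistic 3.74, adjusted p = 0.0016), and Stat6 also had 0.50 (Wald statistic 3.67, adjusted p = 0.002). On the linear scale these are 1.42-fold and 1.41-fold, a smaller change than that of the inhibitors but with narrower intervals, 0.24 to 0.77 for Stat3 and 0.23 to 0.77 for Stat6. Socs5, linked to the control of epidermal growth factor receptor signalling, was the one that fell, with a log2 fold change of -0.76 (adjusted p = 0.011). Socs4, Socs6 and Stat5a were not called, with log2 fold changes of 0.09, 0.20 and 0.09 in the authors' deposited table. Their approximate intervals reached no higher than 0.49. As these rest on fold changes read as shrunken, they cannot exclude a larger change before shrinkage.

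Markers of other cells moved in the same macrophage table. Of 12 neutrophil markers, 10 were called higher, 4 of them with a fold change of the other sign, together with 6 of 8 classical monocyte markers and 4 of 5 tested eosinophil markers, while 4 of 9 dendritic cell, 3 of 7 fibroblast and 2 of 10 T and NK cell markers fell. Of macrophage markers 3 of 10 rose, of epithelial and tumour cell markers 1 of 6 tested, and of B and plasma cell markers 1 of 7 tested rose and 1 fell. Their levels in each group cannot be read from pooled means, here or in the tables of monocytes and granulocytes, and their part in the values of the members was not tested.

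**Figure D2:**
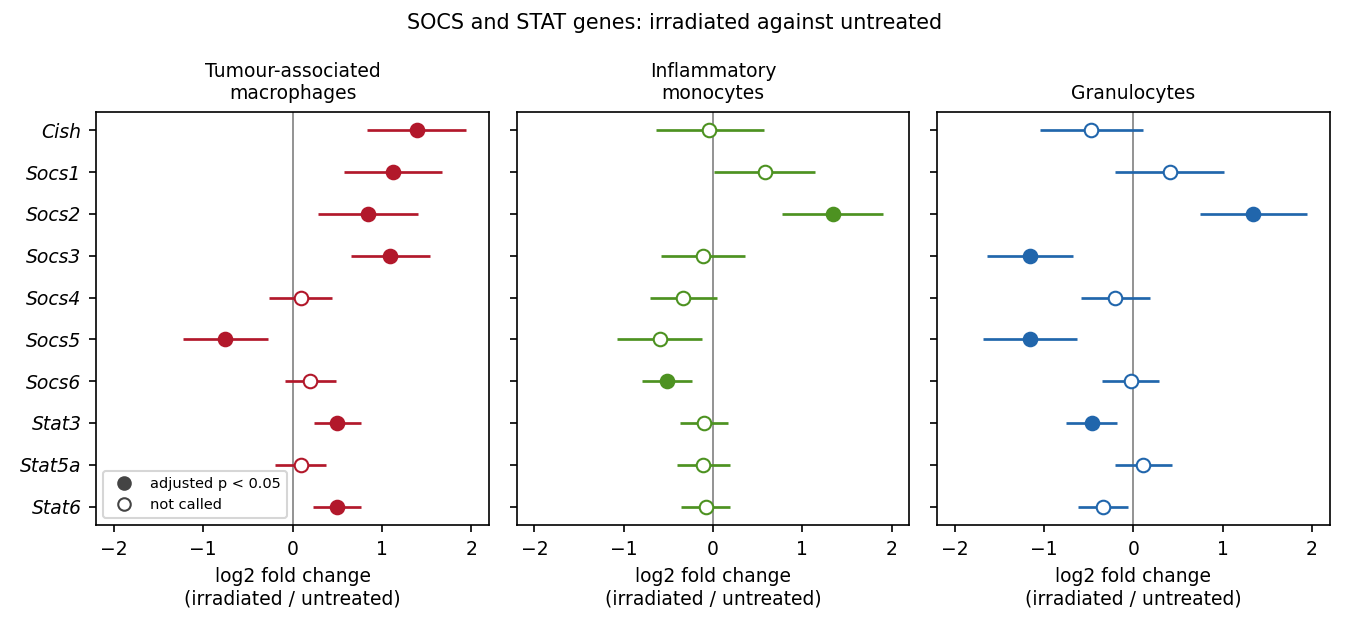
Log2 fold change, irradiated over untreated, of each of the 10 genes in macrophages, inflammatory monocytes and granulocytes, from the authors' deposited tables, with approximate 95% intervals (fold change divided by Wald statistic taken as standard error). Filled points passed an adjusted p of 0.05: Socs3 stands at 1.09 in macrophages and -1.16 in granulocytes, Stat3 at 0.50 and -0.46, and Socs2 is above 0 and filled in all 3 panels.

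In granulocytes of irradiated tumours, 3 of the 10 genes fell and 1 rose. Socs3, Socs5 and Stat3 fell, and Socs2 rose. Among all genes tested here, 9.90% were called lower and 7.32% higher, and the median Wald statistic was -1.30 over the members against -0.14 over all genes tested.

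Socs3 had -1.16 on the log2 scale in the authors' deposited table for granulocytes (Wald statistic -4.78, adjusted p = 9.5e-05), which leaves 0.448 of the level in untreated tumours. Its approximate interval ran from -1.64 to -0.68, and it took rank 296 of 15679 tested genes by p. Stat3 had -0.46 in the same table (Wald statistic -3.21, adjusted p = 0.013), with an interval from -0.75 to -0.18. The inhibitor gene and the gene of the factor it restrains were thus both lower in irradiated granulocytes and both higher in irradiated macrophages.

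Socs5 fell in granulocytes as it did in macrophages, at -1.16 on the log2 scale in the authors' deposited table (Wald statistic -4.32, adjusted p = 4.8e-04). Socs2 had 1.34, or 2.54-fold (Wald statistic 4.44, adjusted p = 3.2e-04). Stat6 had -0.34 and missed the threshold (adjusted p = 0.087), and Cish had -0.47 (adjusted p = 0.29). Socs1 had 0.41 (adjusted p = 0.4), while Socs4, Socs6 and Stat5a lay between -0.20 and 0.11 without a call in the authors' deposited table. Cish and Socs1, both clearly higher in irradiated macrophages, therefore gave no call in granulocytes, and the Cish interval from -1.04 to 0.11 reaches further below 0 than above it. Beside these values, 5 of 10 macrophage and 4 of 8 classical monocyte markers rose in irradiated granulocytes, 1 of 12 neutrophil and 1 of 5 tested eosinophil markers rose, and 3 of 10 markers of T and NK cells and 3 of 7 of fibroblasts fell. Their part in the values of the members was not tested.

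In inflammatory monocytes, 1 gene rose and 1 fell, against 4.13% and 1.77% of all genes tested. Socs2 was the one that rose, at 1.34 on the log2 scale in the authors' deposited table, or 2.53-fold (Wald statistic 4.62, adjusted p = 4.6e-04), and it took rank 120 of 14506 tested genes by p. Socs6, whose product has been tied to the turnover of KIT and other receptor kinases, fell, at -0.51 on the log2 scale (Wald statistic -3.52, adjusted p = 0.014). Socs3 had -0.11 (adjusted p = 0.86), Cish -0.04 (adjusted p = 0.97), Stat3 -0.10 (adjusted p = 0.74) and Stat6 -0.08 (adjusted p = 0.81) in the authors' deposited table. These 4 genes, all higher in irradiated macrophages, had approximate intervals between -0.64 and 0.57 in monocytes. Socs1 had 0.58 with an unadjusted p of 0.044 (adjusted p = 0.24), and Socs5 had -0.59 (adjusted p = 0.13). Among markers, 8 of 10 of macrophages and 7 of 12 of neutrophils and 2 of 5 tested of eosinophils and 1 of 7 tested of B and plasma cells rose, while none of the classical monocyte, dendritic cell, T and NK cell, epithelial and fibroblast markers was called, and their part was not tested.

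Across the 3 tables, Socs2 was called in all 3, each time higher. Socs3, Stat3 and Socs5 were called in 2, Socs1, Socs6, Cish and Stat6 in 1, and Socs4 and Stat5a in none. Of the 14506 genes tested in all 3 tables, 1.98% were called in 3, 9.43% in 2, 29.4% in 1 and 59.2% in none, and 1.25% were called higher in all 3. Dividing the Wald statistics of a table by their robust SD over genes whose mean count reached 50 (2.72 for TAM, 1.56 for inflammatory monocytes, 2.09 for granulocytes) ended all of these calls. Under that scaling no gene of the TAM or granulocyte table passed, while 625 and 628 genes kept an unadjusted p under 0.05, of which 0 and 3 were members. In inflammatory monocytes 25 genes passed and no member did, with 2 members at an unadjusted p under 0.05. At an adjusted p under 0.01, Socs2 and Socs5 lost their call in macrophages, Socs6 in monocytes and Stat3 in granulocytes.

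Whether a gene moved in opposite directions in 2 subsets was tested by taking the larger of its 2 p-values where the Wald statistics differ in sign, adjusted over all genes tested in both tables. Socs3 was the one member called, for macrophages against granulocytes (adjusted p = 0.0056, Benjamini-Hochberg), and it took rank 5 among the genes so ordered. Only 15 of 15679 genes, 0.0957%, were called by this test, and 0 were after the scaling by the robust SD, where 4 genes and no member kept an unadjusted p under 0.05. Stat3 did not pass it (adjusted p = 0.27), because its larger p of 0.0013 was too high for that many genes. Counting genes called higher in the macrophage table and lower in the granulocyte table, without the joint adjustment, gave Socs3 and Stat3 among the 10 members and 193 of all genes, 1.23%. Between macrophages and monocytes, and between monocytes and granulocytes, 0% of genes were called opposite, with 132 and 66 genes at an unadjusted p under 0.05 and none of them a member.

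**Figure D3:**
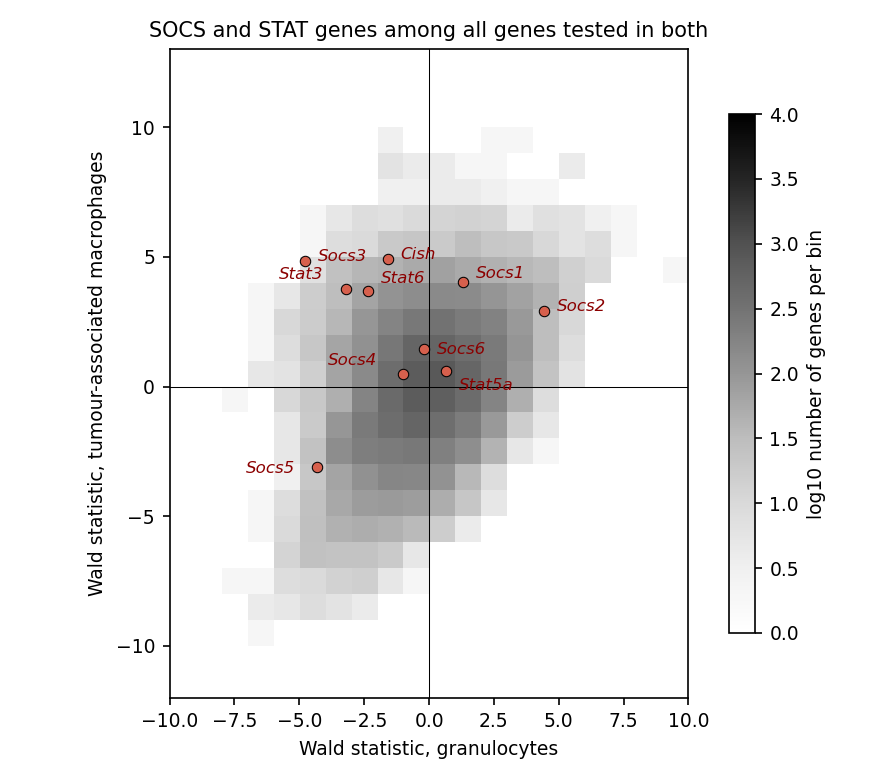
Wald statistics of the 10 genes (points) in macrophages (vertical axis) and granulocytes (horizontal axis), over the density of all 15679 genes tested in both (grey, log10 number of genes per bin). Socs3, at 4.83 in macrophages and -4.78 in granulocytes, lies at the upper left edge of the distribution, Socs2 is positive on both axes and Socs5 negative on both.

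The size of the difference was tested with the approximated standard errors, a test chosen after the tables were seen. Its intervals and p-values treat the subsets as independent, although 11 tumour numbers have libraries in all 3. Between macrophages and granulocytes, 4 members differed, against 11.0% of all genes with a value. The difference in log2 fold change was 2.25 for Socs3 (approximate interval 1.60 to 2.90, adjusted p = 6.1e-09), 1.85 for Cish (1.05 to 2.65, adjusted p = 2.8e-04), 0.97 for Stat3 (0.58 to 1.36, adjusted p = 6.3e-05) and 0.84 for Stat6 (0.45 to 1.23, adjusted p = 9.0e-04). Each of the 4 was higher in macrophages. Between macrophages and monocytes, 5 members differed, against 6.96% of all genes: Socs3 by 1.20 (adjusted p = 0.0096), Cish by 1.42 (adjusted p = 0.017), Socs6 by 0.72 (adjusted p = 0.013), Stat3 by 0.61 (adjusted p = 0.031) and Stat6 by 0.58 (adjusted p = 0.044). Between monocytes and granulocytes no member differed, with 2 at an unadjusted p under 0.05, and 1.27% of all genes were called. Socs3 came nearest there, with a difference of 1.05 (interval 0.38 to 1.72, adjusted p = 0.1).

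For Socs2 no difference between subsets was detected. Its fold changes in monocytes and granulocytes differed by -0.01, with an approximate interval from -0.83 to 0.81, and those in macrophages and granulocytes by -0.51 (interval -1.33 to 0.31, adjusted p = 0.51). Socs1 likewise gave no call, with 0.71 between macrophages and granulocytes (interval -0.11 to 1.53, adjusted p = 0.3), so its call in macrophages alone does not show that it differed there. Dividing the difference statistics by their robust SD ended all 9 calls, although 4 members between macrophages and granulocytes and 3 between macrophages and monocytes kept an unadjusted p under 0.05.

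**Figure D4:**
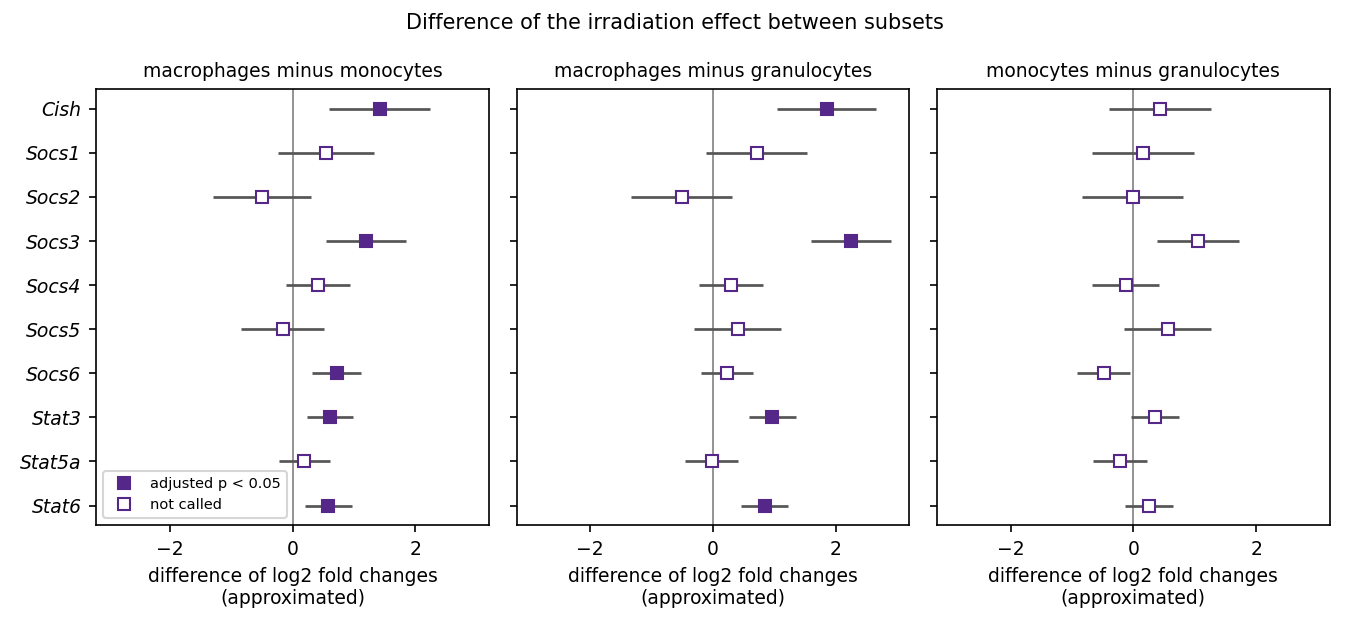
Difference of log2 fold changes between pairs of subsets for each of the 10 genes, with approximate 95% intervals. Filled squares passed an adjusted p of 0.05. Socs3 stands at 2.25 for macrophages minus granulocytes, with Cish at 1.85, Stat3 at 0.97 and Stat6 at 0.84, and no square is filled for monocytes minus granulocytes.

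The pooled level of the members differed widely. The mean normalised count in the authors' deposited tables is an average over libraries, identical in every table, and describes no single subset. Divided by the exon length of GENCODE M21, it was 17676 per kb for Socs3, the highest of the 10, followed by Stat6 with 2833, Socs1 with 1723, Stat3 with 1301 and Cish with 459. The others lay between 80.7 for Stat5a and 29.4 for Socs5. No spread between libraries can be given for this order.

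Other genes of the pathway were read from lists by role, 109 distinct genes besides the members. In macrophages, 43 of the 105 tested rose and 3 fell. In granulocytes, 14 of 104 rose and 13 fell, and in monocytes 9 of 100 rose and 0 fell. As shares these are 41% higher in macrophages, 13.5% in granulocytes and 9% in monocytes, beside 13.9%, 7.32% and 4.13% of all genes tested. The shares that fell were 2.86%, 12.5% and 0% in the same order, beside 12.5%, 9.90% and 1.77% of all genes tested. The share that fell in granulocytes was thus near that of all genes. The lists were drawn up with earlier results of these data known.

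Values in this and the following paragraphs are log2 fold changes unless named otherwise. Among the ligands of the gp130 and interleukin 10 families, 3 of 8 rose in macrophages. Il6 had 1.51 in macrophages (adjusted p = 5.9e-05) and, named after its value was seen, 1.01 in granulocytes (adjusted p = 0.025) in the authors' deposited tables. Osm, oncostatin M, a macrophage and neutrophil cytokine that acts through gp130, had 1.02 in macrophages (adjusted p = 5.6e-04) and -1.02 in granulocytes (adjusted p = 0.0032) in the authors' deposited tables. Csf3, which encodes G-CSF, had 1.45 in macrophages (adjusted p = 0.0018), 1.56 in monocytes (adjusted p = 0.015) and 2.69 in granulocytes (adjusted p = 0.018), the last named after its value was seen. Il10 rose in granulocytes with 2.84 (adjusted p = 5.3e-05) in the authors' deposited table. In all, 3 of 8 ligands rose and 2 fell in granulocytes, Il11 being the second that fell (-2.43, adjusted p = 0.016). The pooled mean count of Il11 was only 4.23, so its fold change rests on very low counts.

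Receptor genes for STAT3-activating cytokines rose in 3 of 11 cases in macrophages, where the G-CSF receptor gene Csf3r had 1.36 (adjusted p = 1.1e-09) and is also one of the neutrophil markers, and the interleukin 10 receptor genes Il10rb and Il10ra 0.71 and 0.66, in the authors' deposited table. Receptor genes for STAT5-activating cytokines rose in 5 of 9 tested cases there, while 3 rose and 2 fell in granulocytes and none was called in monocytes. Among the 5 in macrophages was Il5ra, also one of the eosinophil markers and named after its value was seen. The 3 that rose in granulocytes were Il3ra (1.21, adjusted p = 1.6e-06), Il2rg (0.62, adjusted p = 0.01) and Il7r (1.29, adjusted p = 0.011) in the authors' deposited table. Csf2rb, the common beta chain of the GM-CSF and interleukin 3 receptors, had 0.97 in macrophages (adjusted p = 4.4e-07) and -0.59 in granulocytes (adjusted p = 0.012) in the authors' deposited tables. The interleukin 4 receptor gene Il4ra, upstream of STAT6, had 0.62 in macrophages (adjusted p = 0.0011), where all 3 tested genes of its list rose, and was not called in monocytes (0.31) or granulocytes (-0.29). Interferon receptor genes moved in macrophages too, with Ifngr1 at 0.60 (adjusted p = 3.0e-05), and 3 of 6 tested genes of that list rose.

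Of the JAK kinase genes, 3 of 4 rose in macrophages, led by Jak2, the kinase of the GM-CSF and interferon gamma receptors, with 1.00 in the authors' deposited table (adjusted p = 2.6e-05). In granulocytes Tyk2 rose (0.75, adjusted p = 1.7e-05), and in monocytes Jak3 (0.47, adjusted p = 0.016). Stat2, a factor downstream of type I interferon receptors, rose in all 3 tables, with 1.06 in macrophages, 0.89 in monocytes and 1.12 in granulocytes. Usp18, a feedback inhibitor of the type I interferon receptor, did the same, with 1.44, 1.18 and 1.54 in that order. It belongs to a list of 12 other negative regulators, of which 4 rose in macrophages, 1 rose in monocytes, and 1 rose and 2 fell in granulocytes. Those that fell there were Ptpn2, a phosphatase gene (-0.68, adjusted p = 3.8e-04), and Ptprc, the CD45 gene (-0.43, adjusted p = 0.015), in the authors' deposited table. Stat4 fell in granulocytes (-1.16, adjusted p = 0.0018). Socs7, the remaining SOCS gene, and the 5 genes of the ubiquitin ligase that SOCS proteins recruit gave no call in any table.

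Genes known as STAT3 targets rose in 13 of 20 cases in macrophages and fell in 2, with a median Wald statistic of 4.32. In granulocytes 5 of 20 fell and 1 rose, with a median of -2.08, and in monocytes 1 rose and none fell, with a median of 0.49. The gene that rose in monocytes was Lcn2 (1.75, adjusted p = 0.0032), which is also one of the neutrophil markers. The smallest p-values in macrophages belonged to Hif1a, the oxygen-sensing transcription factor gene (1.36, adjusted p = 1.2e-17), and Il1rn, the interleukin 1 receptor antagonist gene (1.90, adjusted p = 4.0e-14), in the authors' deposited table. Junb, Mcl1, Cebpb and Nfil3 were called higher in macrophages and lower in granulocytes, of which Junb and Cebpb are named after their values were seen. Mcl1, a survival factor of myeloid cells, had 0.98 in macrophages (adjusted p = 4.0e-11) and -0.63 in granulocytes (adjusted p = 3.8e-04) in the authors' deposited tables. The list did not move as one in macrophages: Myc (-1.19) and Ccnd1 (-1.16), both genes of cell growth and division and also named after their values were seen, fell. Many of these genes also answer to other signals, and the list was drawn up with earlier results of these data known, so its counts are no independent evidence of STAT3 activity.

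STAT5 targets, which share 4 genes with that list, rose in 3 of 12 cases and fell in 1 in macrophages, with Pim1 at 1.14 (adjusted p = 4.3e-04). In granulocytes 3 fell and 1 rose. STAT6 targets rose in 7 of 16 cases in macrophages, 3 of 16 in monocytes and 2 of 16 in granulocytes, and 1 fell in macrophages and 1 in granulocytes. Among the 3 in monocytes was Mrc1, also one of the macrophage markers. Arg1, the arginase of alternatively activated macrophages, was called higher in all 3, with 0.88 in macrophages, 0.62 in monocytes and an adjusted p of 3.0e-08 in granulocytes. Chil3, a chitinase-like gene of the same state that is also one of the classical monocyte markers, had 3.22 in macrophages (adjusted p = 1.4e-08) and 2.60 in granulocytes (adjusted p = 0.0022) in the authors' deposited tables.

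**Figure D5:**
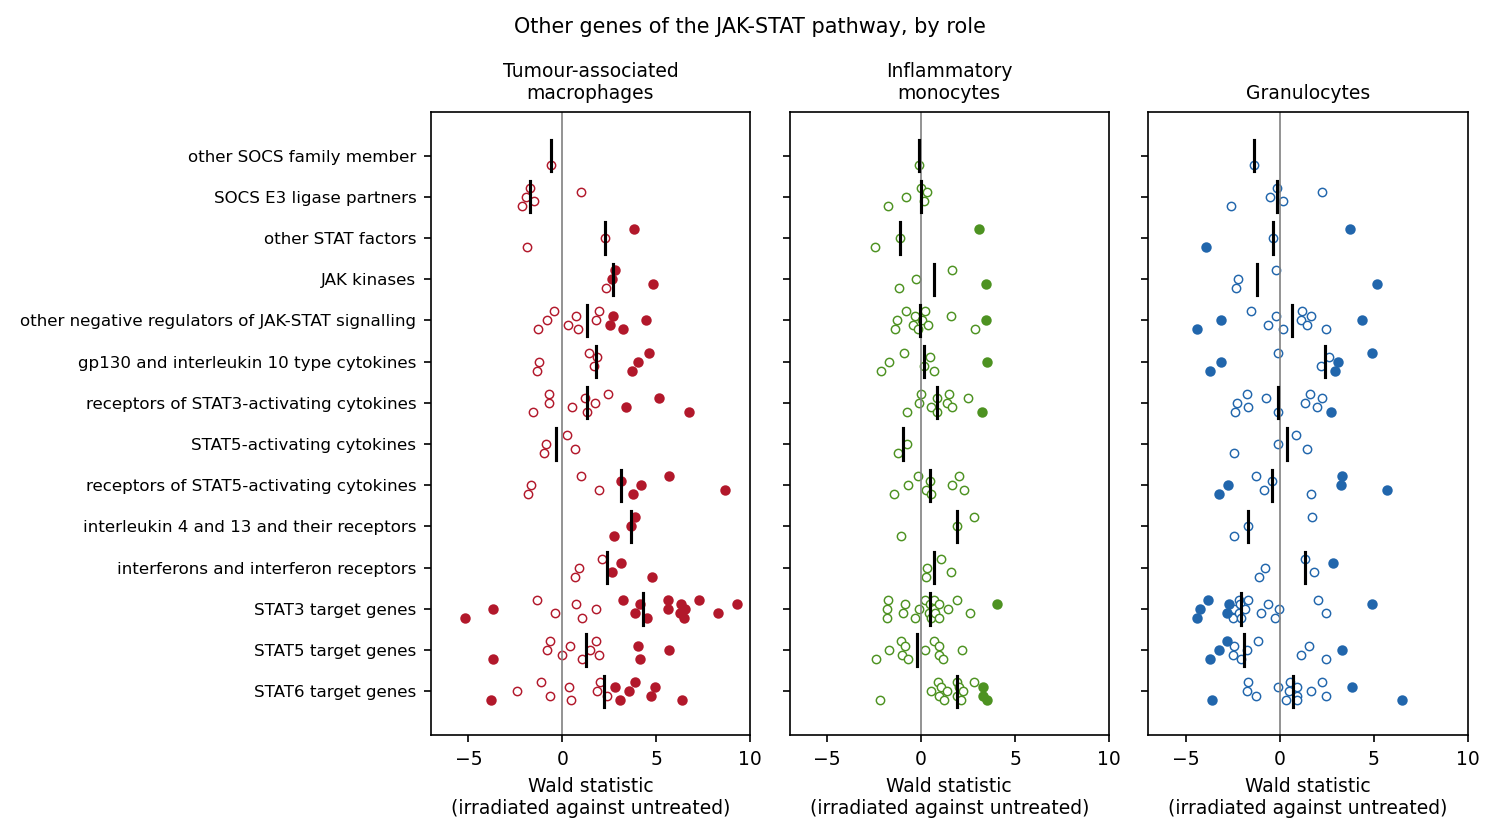
Wald statistics of the other pathway genes by role in macrophages, inflammatory monocytes and granulocytes, one point per gene, filled where the adjusted p is under 0.05, with the median of each list as a black bar. The median of the STAT3 target list stands at 4.32 in macrophages and -2.08 in granulocytes.

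The genes whose 3 Wald statistics lay nearest to those of Socs3, among 10118 others whose mean count reached 50, were Csrnp1, Chd7, Atf3 and Chp1, at Euclidean distances of 0.48, 0.57, 0.58 and 0.90. Atf3, a stress-induced transcription factor gene, had Wald statistics of 4.49 in macrophages, -0.87 in monocytes and -4.55 in granulocytes in the authors' deposited tables. Nearest to Cish were Dgka, Kdm7a, Fxyd5 and Plekhf2 (0.25 to 0.45), and nearest to Stat3 were Ankrd33b, Plek, Rasgrp2 and Cast (0.24 to 0.39). With 3 points a gene, this likeness is a description of the 3 comparisons only.

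The gates could not be checked by the levels of their genes, because the deposited mean counts are pooled and describe no single subset. In these pooled means, Ptprc (CD45), Itgam (CD11b), Adgre1 and Ly6c2 had 21103, 11003, 9607 and 8400. Ly6g had 169 and Csf3r, another neutrophil marker, had 26794. Genes of markers that the gates exclude did move with irradiation. Ly6c2 was called higher in the Ly6C- macrophages (Wald statistic 6.56, adjusted p = 4.1e-09). Ly6g was called higher in the Ly6G- monocytes (Wald statistic 3.04, adjusted p = 0.045) but not in macrophages (Wald statistic 2.41, adjusted p = 0.058). Whether other cells in the gates gave these values was not tested.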

How the data were processed

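Per the submitters' processing notes, the tools were DESeq2 1.28.1 in R 4.0.2, fastp 0.20.1 and STAR 2.7.6a, with build mm39 (GRCm39). The counter, the annotation and the strand setting are not given in the sources used. Per the labels, the libraries were made with a transposase kit from picogram amounts of cDNA. The deposited mean normalised count is a signal averaged by the authors over libraries. The authors also deposited a log2 fold change, a Wald statistic (a score) and p-values, raw and adjusted. Each raw p-value matches a two-sided normal p from its Wald statistic to within 0.00211 on the log10 scale, and for no member do fold and Wald statistic differ in sign, as they do for 16 called genes in TAM and 3 in inflammatory monocytes.

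No model across libraries was refitted, since the tables hold none. Direction was taken from the Wald statistic. Opposite directions and approximated differences between subsets were tested across all genes with an adjusted p in both tables, with Benjamini-Hochberg adjustment. The difference leaves out 360, 445 and 276 genes whose fold and Wald statistic differ in sign. Both tests were checked on simulated data with independent errors in the 2 subsets. That check does not cover tumours shared between subsets or the wider spread of the observed Wald statistics. Members, lists and rules were chosen with earlier results of these data known. Of each pathway list, up to 3 called genes per comparison with the smallest p were named, or the gene with the highest mean where none was called, apart from those marked as named later. Not every gene that the rule takes is described, and 1 pathway list and 1 further gene are not reported here. Alternatives were an adjusted p under 0.01 or 0.1, a minimum mean count of 50, a minimum absolute log2 fold change of 1, adjustment over all genes with a p-value, scaling by the robust SD, re-centring and direction from the fold. Python 3.11.15, pandas 2.3.3, numpy 2.4.6, scipy 1.17.1 and matplotlib 3.10.9 were used.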

Additional observations from a re-analysis of the deposited data

Results flagged for a closer look

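Socs3 was higher in irradiated macrophages and lower in irradiated granulocytes, and the test of opposite directions called it (adjusted p = 0.0056). With approximated standard errors, the log2 fold change in macrophages exceeded that in granulocytes by 2.25 for Socs3, 1.85 for Cish, 0.97 for Stat3 and 0.84 for Stat6. It exceeded that in inflammatory monocytes by 1.20 for Socs3, 1.42 for Cish, 0.72 for Socs6, 0.61 for Stat3 and 0.58 for Stat6. These 10 results are listed because a test between subsets called them. The first rests on the larger of 2 separate p-values, the others on the approximated difference. The test of the difference was chosen after the tables were seen and treats the subsets as independent. It also called 11.0% of all genes between macrophages and granulocytes, and 6.96% between macrophages and inflammatory monocytes. Neutrophil markers were called higher in macrophages in 10 of 12 cases, 4 of them with a fold change of the other sign, and classical monocyte markers in 6 of 8. Markers of other cells moved there too, as given above. The part of all these markers in the listed differences was not tested.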

How the results depend on the processing

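Over the 10 genes, 3 tables and 8 alternatives, 216 of 240 outcomes, called or not called, stayed on their side of the threshold. Among the rest, 23 calls were lost and 1 was gained (Stat6 in granulocytes at an adjusted p under 0.1). Of all outcomes, 0 changed direction. Many of the outcomes belong to genes that were not called: 7 members were called in macrophages, 2 in inflammatory monocytes and 4 in granulocytes. A threshold of 0.1 cannot lose a call. Direction from the fold could not change one, because fold and Wald statistic differ in sign for no member. Dividing Wald statistics by their robust SD left 0 members called in macrophages, 0 in inflammatory monocytes and 0 in granulocytes, 0 with opposite directions, and 0 with a difference in fold in each pair of subsets. The cause was not tested. Asking also for a fold of 1 or more on the log2 scale left 3 members in macrophages (Socs1, Socs3 and Cish) and 1 in inflammatory monocytes (Socs2). In granulocytes it left 3 (Socs2, Socs3 and Socs5), and Stat3 lost its call. A threshold of 0.01 left 5 in macrophages, 1 in inflammatory monocytes (Socs2) and 3 in granulocytes (Socs2, Socs3 and Socs5). It left 1 with a difference in fold between macrophages and inflammatory monocytes (Socs3). Adjusting over all p-values of a table, a mean count of at least 50, subtraction of the median Wald statistic and direction from the fold kept the calls of all 10 genes in all 3 tables.

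No paired analysis was possible because the tables hold no values of single libraries and the treatment arms share no tumour number. For the same reason leaving out single libraries was not run, and depth per library is unknown.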
